A study of Homo sapiens with 24 samples.

Results

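ME2, ELAC1, SMAD4 and MEX3C lie in that order on the long arm of human chromosome 18, with no other protein-coding gene of measurable RNA between them, and they are 4 of the 57500 genes in the deposited count tables. They were chosen by their measured values, as a run of neighboring genes with almost no counts in FaDu spheroids over all conditions, so their difference between the spheroid types is described here and not tested. RNA was sequenced from spheroids, multicellular aggregates grown for 4 days to a diameter of about 400 µm, of the established head and neck squamous cell carcinoma lines FaDu and SAS. The study asked how hyperthermia (HT), radiotherapy (RT) and their combination act on such spheroids. For each line there were 3 replicates of 4 conditions, which makes 8 groups and 24 libraries. Controls stayed at 37 °C, and heated spheroids spent 60 min at 42.5 °C. Irradiated FaDu spheroids received 7 Gy, irradiated SAS spheroids received 10 Gy, and in HT + RT the same dose followed the heating. All RNA was taken 0.5 h after treatment. Each spheroid type comes from a single cell line, so line and spheroid type cannot be told apart, and no other head and neck line was measured.

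In TGF-beta signaling, ligands of the TGF-beta, activin and BMP families join type II and type I receptor kinases, which phosphorylate the receptor-regulated SMADs. SMAD4 is the common partner of these SMADs in the nucleus, where the complexes bind target genes, and it is a tumor suppressor gene of pancreatic, colorectal and head and neck carcinomas. Its neighbors have other roles: ME2 is a mitochondrial malic enzyme that makes pyruvate from malate, ELAC1 is an endonuclease that acts on the 3′ ends of tRNAs, and MEX3C is an RNA-binding ubiquitin ligase.

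All 4 genes had a promoter in the RefSeq table of build GRCh38.p14, and the 250 bases before each start site are shown because the genes share a pattern of RNA counts and their start regions can be compared directly. Capitals mark the GC box letters GGGCGG and the CCAAT letters, each searched on both strands, where they may overlap. The windows are chr18:50878868-50879117 on the plus strand for ME2, chr18:50967790-50968039 on the plus strand for ELAC1, chr18:51029963-51030212 on the plus strand for SMAD4 and chr18:51197682-51197931 on the minus strand for MEX3C.
ME2: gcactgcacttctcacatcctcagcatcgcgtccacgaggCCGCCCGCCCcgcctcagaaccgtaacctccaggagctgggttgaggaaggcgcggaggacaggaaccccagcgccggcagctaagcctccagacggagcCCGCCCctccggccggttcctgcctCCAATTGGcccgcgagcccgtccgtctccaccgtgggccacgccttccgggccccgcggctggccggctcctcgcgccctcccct
ELAC1: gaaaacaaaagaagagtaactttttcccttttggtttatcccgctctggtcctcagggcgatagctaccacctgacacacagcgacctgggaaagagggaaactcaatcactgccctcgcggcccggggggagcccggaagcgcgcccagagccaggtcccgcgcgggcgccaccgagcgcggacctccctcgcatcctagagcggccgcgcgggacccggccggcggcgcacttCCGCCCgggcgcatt
SMAD4: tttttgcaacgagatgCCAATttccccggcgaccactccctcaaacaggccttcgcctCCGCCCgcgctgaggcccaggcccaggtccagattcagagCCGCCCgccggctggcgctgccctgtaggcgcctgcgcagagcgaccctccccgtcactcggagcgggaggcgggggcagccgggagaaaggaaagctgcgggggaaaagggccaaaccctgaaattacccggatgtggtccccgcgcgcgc
MEX3C: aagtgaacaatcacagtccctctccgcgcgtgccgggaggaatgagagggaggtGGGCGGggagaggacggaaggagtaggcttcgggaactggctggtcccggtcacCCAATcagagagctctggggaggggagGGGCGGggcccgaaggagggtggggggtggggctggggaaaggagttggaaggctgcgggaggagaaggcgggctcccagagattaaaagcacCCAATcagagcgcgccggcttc
ME2 held 3 GC boxes and 2 CCAAT matches, ELAC1 held 1 GC box, SMAD4 held 2 GC boxes and 1 CCAAT match, and MEX3C held 2 of each. GGGCGG occurred in 42.6% and CCAAT in 32% of all 35116 promoters of the same length. Neither TATAAA, found in 10.7% of promoters, nor the heat shock element core GAANNTTC, found in 5.78%, was in any of these 4 windows. The GC content was 72.4% for ME2, 66.4% for ELAC1, 68.4% for SMAD4 and 65.6% for MEX3C, against a median of 58.0% over all promoters. The windows held 27, 28, 25 and 15 CpG dinucleotides in the same order, where the median promoter held 11. These are matches of letters and show no binding.

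The total count per library ran from 15203484 to 29452514 with a median of 18378943. FaDu libraries had a median of 17727143 and SAS libraries one of 19449759. The FaDu libraries numbered 1 stood apart: the chi-square per gene against another replicate of the same group was 15.1 to 22.0 for pairs with a number 1, against 3.51 to 5.09 between numbers 2 and 3 and 4.61 to 11.8 among SAS replicates. Counts of altered genes in FaDu comparisons are given also without these libraries. Single genes are too, among those checked this way, where that changes a call or moves a value by more than 1.5 times. Those not checked include TGFB1, TGFBR2, PIGN, ZNF516 and the paralogs of the 4 genes, apart from SMAD7 in heated FaDu spheroids. All 7 epithelial and squamous markers were at 1 CPM (counts per 1e+06 counts, scaled by TMM) or more in both lines, and their summed level was 9388 to 11290 CPM in FaDu and 3710 to 4495 CPM in SAS libraries. The most abundant of them was the keratin gene KRT17, with a mean of 4914 CPM in FaDu and 1546 CPM in SAS. Of 6 fibroblast markers only COL1A1 reached 1 CPM (48.4 CPM in FaDu and 12.6 CPM in SAS), while DCN had a mean below 0.1 CPM in both lines. The summed fibroblast list was 34.2 to 65.9 CPM in FaDu and 1.77 to 31.7 CPM in SAS. Among endothelial markers CDH5 was the most abundant, with 3.801 CPM in FaDu and 15.6 CPM in SAS, and the summed list was 6.17 to 8.71 CPM and 9.54 to 23.6 CPM. The leukocyte markers PTPRC and CD3E had means below 0.1 CPM in both lines, and CD14 was at 5.49 CPM in FaDu and 7.42 CPM in SAS, which left the summed list at 4.34 to 6.51 CPM and 4.99 to 9.57 CPM.

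The 12 FaDu libraries held 3 counts of the 4 genes in all, and the 12 SAS libraries held 40810. ELAC1 had 0 counts in each FaDu library. ME2 had 1 count, in FaDu Control 3, while SMAD4 and MEX3C had 1 count each, both in FaDu HT 1, and the other libraries had 0. Without the libraries numbered 1 the FaDu total was 1 count. In SAS, ME2 had 1115 to 1542 counts per library, ELAC1 65 to 145, SMAD4 788 to 1065 and MEX3C 656 to 1063, so no FaDu library came near the lowest SAS library for any of them. In bulk RNA, fewer cells of a kind and less RNA per cell cannot be told apart.

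Pooled over 12 libraries, 1 FaDu count was 0.00407 CPM with an exact Poisson 95% interval from 0.000103 to 0.0227 CPM, and a count of 0 allows up to 0.0122 CPM, a floor of 3 counts over the 12 libraries. The FaDu level of ME2 was 0.00522% of its SAS level (95% interval 0.000132 to 0.0291%). SMAD4 was at 0.00758% (0.000192 to 0.0422%) and MEX3C at 0.00796% (0.000202 to 0.0444%). ELAC1, the gene with the lowest SAS level, was at least 426-fold lower in FaDu, computed against the floor, which is another kind of limit than the 2-sided intervals of the other 3 genes; its own 2-sided interval reaches 0.288% of the SAS level. These intervals and floors cover counting error only. The deposited files do not state whether counting used the strand, and the annotated gene AC091551.1, which had 0 counts in both lines, shares 8.51% of the exon bases of ELAC1 and 7.37% of those of SMAD4.

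**Figure D1:**
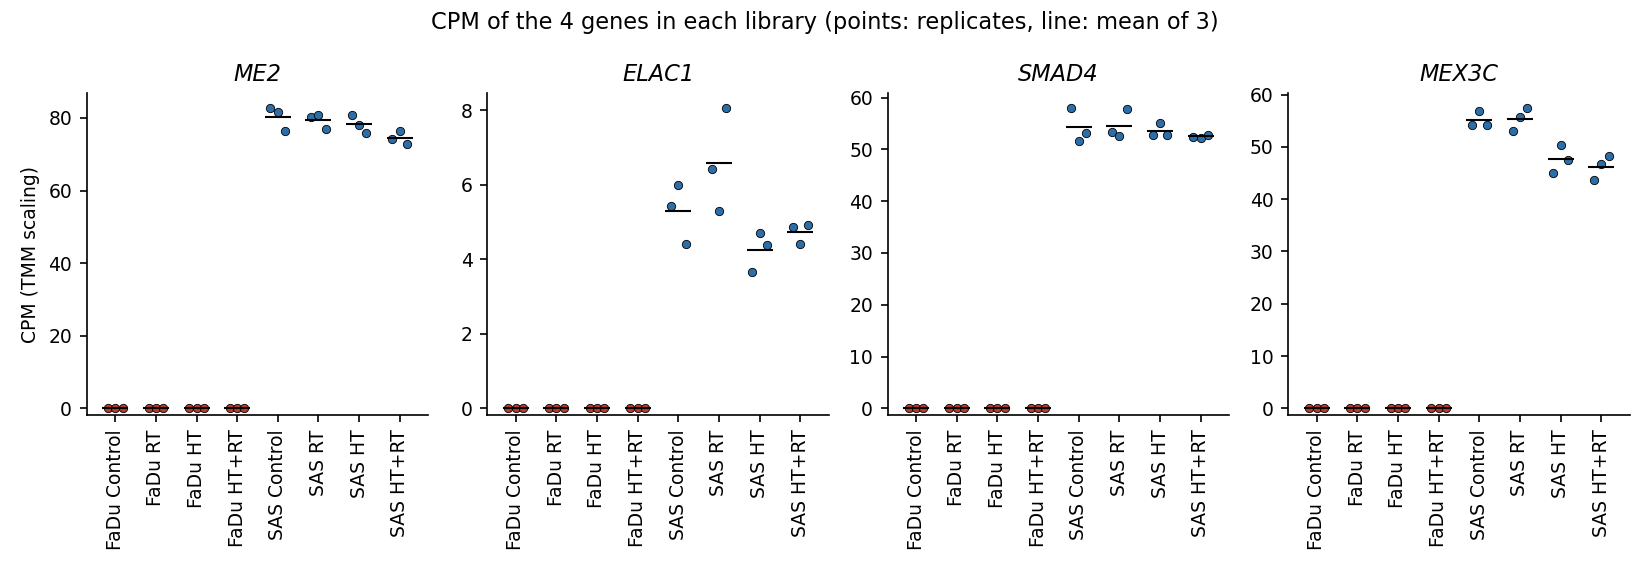
CPM of ME2, ELAC1, SMAD4 and MEX3C in each of the 24 libraries on a linear axis, grouped by line and condition. FaDu libraries sit at the bottom with 3 counts in all, and SAS libraries lie between 3.66 and 82.6 CPM.

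Over the 12 SAS libraries ME2 had 78.0 ± 3.13 CPM (SD, n = 12, median 77.4, range 72.8 to 82.6). SMAD4 had 53.7 ± 2.11 CPM (median 52.8, range 51.7 to 57.9). MEX3C had 51.1 ± 4.78 CPM (median 51.8, range 43.7 to 57.4). ELAC1, with few counts, had 5.21 ± 1.17 CPM (median 4.89, range 3.66 to 8.04), and its coefficient of variation of 22.4% was the highest of the 4, against 9.36% for MEX3C, 4.01% for ME2 and 3.92% for SMAD4. Levels of different genes can be compared only per length, here the union of annotated exons. On that scale the order in SAS was MEX3C with 6.83 ± 0.639 CPM per kb, ME2 with 4.80 ± 0.193, SMAD4 with 4.09 ± 0.161 and ELAC1 with 1.31 ± 0.294. Neighbors in this order did not overlap over the 12 SAS libraries, and the closest pair was ME2, whose lowest library was at 4.48 CPM per kb, and SMAD4, whose highest was at 4.41. The order depends on the union lengths, 16243 bases for ME2, 13123 for SMAD4, 7481 for MEX3C and 3970 for ELAC1. Which annotated transcripts the cells used was not measured. No such order can be given in FaDu, where each gene had at most 1 count.

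In SAS controls 1 to 3, SMAD4 was at 57.9, 51.7 and 53.2 CPM, after RT at 53.3, 52.6 and 57.8 CPM, after HT at 52.8, 55.2 and 52.7 CPM, and after HT + RT at 52.5, 52.2 and 52.8 CPM. The 4 SAS conditions overlapped, and Control 1 and RT 3 were the highest libraries. ME2 was at 82.6, 81.5 and 76.4 CPM in controls, at 80.3, 80.8 and 76.8 CPM after RT, at 80.9, 78.0 and 75.7 CPM after HT, and at 74.3, 76.3 and 72.8 CPM after HT + RT. Its HT + RT libraries all lay below the lowest control, by a small margin for replicate 2, and its other groups overlapped. ELAC1 was at 5.44, 5.99 and 4.42 CPM in controls, at 6.43, 5.29 and 8.04 CPM after RT, at 3.66, 4.69 and 4.39 CPM after HT, and at 4.86, 4.42 and 4.92 CPM after HT + RT. All these groups overlapped with the controls, and RT 3 was the highest library. MEX3C was at 54.3, 57.0 and 54.2 CPM in controls, at 53.1, 55.7 and 57.4 CPM after RT, at 45.0, 50.4 and 47.6 CPM after HT, and at 43.7, 46.7 and 48.3 CPM after HT + RT. Its libraries from both heated groups lay below all control and RT libraries, which overlapped with each other.

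These treatment contrasts within SAS were not used to choose the genes and were tested with edgeR's quasi-likelihood test and Benjamini-Hochberg adjustment over all genes tested, where a gene was called altered at an adjusted p under 0.05 with an absolute log2 fold change over 1. After RT, 0 of 4 members were altered, where 4 of 14680 genes were (0.0272%). At an unadjusted p under 0.05 there were also 0 members, beside 834 genes, and DESeq2 called 0 members. The log2 fold changes were -0.01 for ME2, 0.01 for SMAD4, 0.01 for MEX3C and 0.32 for ELAC1 (SE 0.19, adjusted p = 0.93). After HT, 0 of 4 members were altered by edgeR and 0 by DESeq2, where edgeR called 904 of 15000 genes (6.03%), and 1 member was among the 5323 genes with an unadjusted p under 0.05. This was MEX3C, with a log2 fold change of -0.18 (SE 0.07, 95% interval -0.33 to -0.03, unadjusted p = 0.026, adjusted p = 0.089), a level 11.7% below the control. ELAC1 had a log2 fold change of -0.28 (adjusted p = 0.31), ME2 one of 0.00 and SMAD4 one of 0.01.

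After HT + RT, edgeR and DESeq2 again called 0 of 4 members, where edgeR called 950 of 14938 genes (6.36%), and MEX3C was the only member among the 5392 genes with an unadjusted p under 0.05. Its log2 fold change was -0.20 (SE 0.07, 95% interval -0.35 to -0.05, unadjusted p = 0.013, adjusted p = 0.051), a level 13.1% below the control with an interval from -21.8 to -3.54%. All 6 heated libraries were lower than the 3 controls. Over the alternative settings the adjusted p of MEX3C ran from 0.057 to 0.25 for HT and from 0.016 to 0.17 for HT + RT, so its side of the threshold depended on the setting for HT + RT while its size stayed small. SMAD4 had a log2 fold change of 0.00 with an interval from -0.14 to 0.15, ME2 one of -0.06 with an interval from -0.19 to 0.08, and ELAC1 one of -0.11 with an interval from -0.48 to 0.27. By adjusted p alone, 0 of 4 members passed in the RT, HT and HT + RT comparisons, where 11 genes (0.0749%), 3540 genes (23.6%) and 3747 genes (25.1%) did. The 3 comparisons share the same SAS controls.

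**Figure D2:**
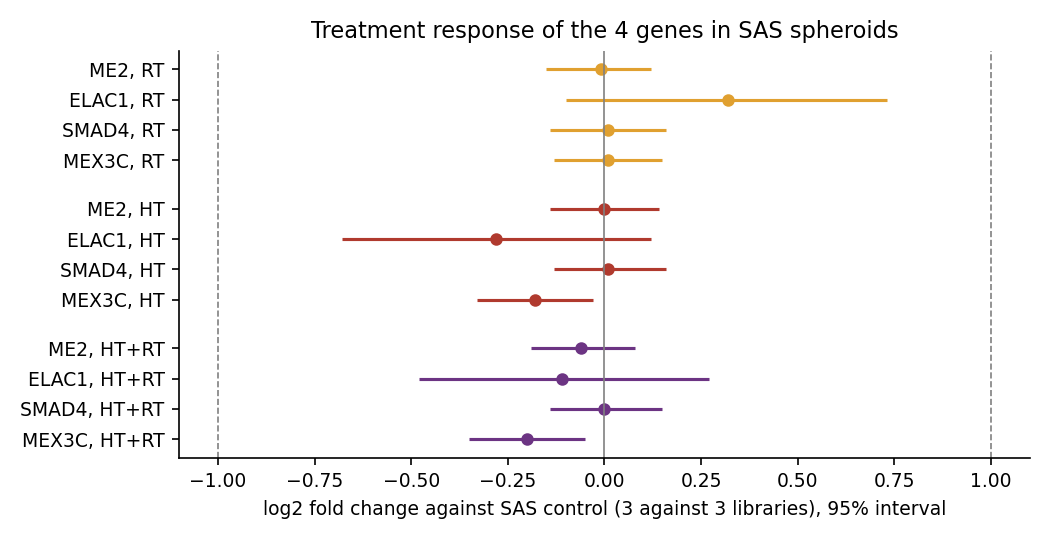
Log2 fold change of the 4 genes in SAS spheroids after RT, HT and HT + RT against control with 95% intervals, from edgeR's quasi-likelihood fit (n = 3 a group). Of these genes MEX3C has intervals below 0 after HT and after HT + RT, and the interval of SMAD4 after HT + RT runs from -0.14 to 0.15.

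Between ME2 and MEX3C the annotation lists 3 more genes, and all were at or near 0 in both lines: RF00019 and AC091551.1 had no counts, and the pseudogene SRSF10P1 had 1 count in SAS. The protein-coding genes just outside the run on the ME2 side, MRO and MAPK4, had 1 FaDu count each and 0 and 2 SAS counts, so they do not tell the lines apart. Beyond them SKA1, a gene of the spindle and kinetochore, had 9.40 CPM in FaDu and 18.7 CPM in SAS, or 50.2% of the SAS level. On the MEX3C side DCC, a netrin receptor gene, had 145 counts in FaDu and 0 in SAS. After it MBD2, which encodes a methyl-CpG-binding protein, had 62.6 CPM in FaDu and 98.6 CPM in SAS (63.5%). Past MRO and MAPK4, the run of 4 thus has genes with RNA in FaDu on both sides.

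Of the 20 protein-coding genes flanking the run, 10 on each side, 14 had 1 CPM or more in at least 1 line, and 12 of these 14 (85.7%) were lower in FaDu, with a median log2 ratio of FaDu over SAS of -0.77, where 0.01 CPM was added to both means. The 160 chromosome 18 genes at that level outside the run and its flanks had a median of -0.05 with 50.6% lower in FaDu, and all 13026 protein-coding genes at that level outside the run had a median of -0.03 with 51.2% lower. With the flanking genes included, the sides of the run differed, as 117 genes before it had a median of 0.12 with 42.7% lower in FaDu and 57 genes after it had a median of -0.66 with 75.4% lower. Among the flanking genes MBD1 was at 45.2%, CXXC1 at 50.4%, TXNL1 at 54.9%, C18orf54 at 53.8% and CCDC68 at 19.9% of the SAS level, whereas MYO5B at 97.3%, RAB27B at 95.7% and POLI at 89.5% lay close to it. ACAA2 at 263% and TCF4 at 545% were higher in FaDu. LIPG, an endothelial lipase gene at the far end of the ME2 side, had 5 FaDu and 1014 SAS counts and was not adjacent to the run. These values are RNA counts and do not measure gene copies.

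**Figure D3:**
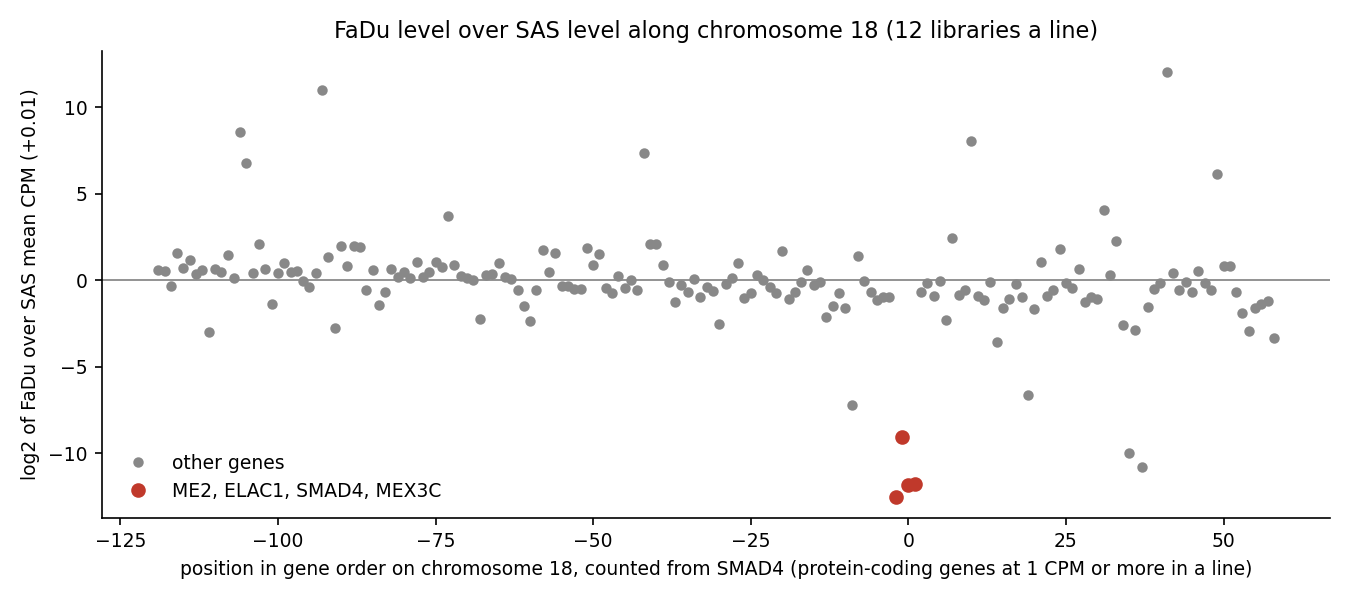
Log2 ratio of mean CPM, FaDu over SAS, for chromosome 18 protein-coding genes at 1 CPM or more in a line, in gene order along the chromosome. ME2, SMAD4 and MEX3C are the lowest points, all 4 members have FaDu means below the 0.01 CPM added to both means, so their positions depend on that offset, and the 57 genes after the run have a median of -0.66 against 0.12 for the 117 before.

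To see how common such runs were, protein-coding genes at 1 CPM or more in a line were put in annotation order, and a gene was called silent in a line at up to 1% of the mean CPM of the other. Of 13030 genes, 108 were silent in FaDu and 302 in SAS. Adjacent silent genes formed 9 runs of 2 or more in FaDu and 30 in SAS, of which 4 and 9 held 3 or more genes. Under this rule the longest was a FaDu run of 6 X-linked genes (RRAGB, KLF8, NBDY, FAAH2, ZXDB and ZXDA) with a summed level of 32.9 CPM in SAS and 0.0260 CPM in FaDu. The chromosome 18 run came next with 4 genes, 188 CPM in SAS and 0.0132 CPM in FaDu. Another 4 genes, on chromosome 19 (PSG8, PSG1, PSG6 and PSG2), summed to 8.56 CPM in SAS and 0.0504 CPM in FaDu. The order of lengths depended on the rule: at 5 CPM or more the X-linked run shrank to 2 genes and the chromosome 18 run was the longest FaDu run, and at up to 5% a run of 7 PSG genes was. The other FaDu run of this kind is not described here, and all SAS runs of this kind held 3 genes. On chromosome 18, 8 genes were silent in FaDu and 6 in SAS.

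The FaDu counts of the members can also be set beside those of single genes with similar SAS counts. Of 4817 genes with at least 10000 SAS counts, 5 (0.104%) had at most 3 FaDu counts, and these were ME2, SMAD4, MEX3C, NLRP2 and TNFRSF10D. With at least 5000 SAS counts they were 10 of 7114 genes (0.141%), and with at least 1000, which takes in ELAC1, they were 23 of 10358 (0.222%). In the reverse direction, 7 of 4989, 20 of 7390 and 110 of 10828 genes had at most 3 SAS counts. TMX3, another chromosome 18 gene outside the run, had 3 FaDu and 8783 SAS counts. NLRP2, TNFRSF10D and TMX3 were picked after their values were seen.

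The genes most like the mean of the 4 members over all 24 libraries were MINDY3 (Pearson r = 0.999), NBDY (0.999), KRT7 (0.998), CAPN2 (0.998) and ECHDC3 (0.998), computed on log2 CPM of 13343 genes. MINDY3 had 1 FaDu and 5202 SAS counts, NBDY 0 and 3652, ECHDC3 1 and 3874, and KRT7, a keratin gene, 2607 and 574986. CAPN2, a calpain gene, had 41379 and 177639, so it had ample RNA in FaDu too. The 24 points fall into 2 clusters by line, so these values restate the difference between the lines. Among the members themselves r was 0.996 to 1 over the 24 libraries. Within the 12 SAS libraries, which share treatments, it was 0.165 for ME2 and ELAC1, 0.210 for ME2 and SMAD4, 0.406 for SMAD4 and MEX3C, 0.486 for ME2 and MEX3C, 0.487 for ELAC1 and SMAD4, and 0.712 for ELAC1 and MEX3C.

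The rest of the TGF-beta pathway was measured in both lines, from a list of 63 genes: 9 ligands, 12 receptors and coreceptors, 5 receptor-regulated SMADs, 16 inhibitors and nuclear partners, and 21 target genes. Between the controls edgeR tested 60 of them and called 22 lower and 9 higher in FaDu, where 6020 of 15810 genes were altered (38.1%) and 2664 of these were lower in FaDu (16.9%). The median log2 fold change of the 60 genes was -0.56, against 0.03 over all genes tested. DESeq2 called 30 of the 60, and without the FaDu libraries numbered 1 edgeR called 31 of the list and 6438 genes in all. ACVRL1, GREM1 and ID4 had too few counts to be tested, and 1 lower target gene is counted here but neither named nor plotted.

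Among ligands 5 of 9 were lower and 2 higher in FaDu, with a median of -2.03. TGFB2, a TGF-beta ligand, had 0.420, 0.255 and 0.126 CPM in FaDu controls and 81.0, 94.1 and 64.8 CPM in SAS controls. All FaDu libraries were near 0 and far from the SAS range, with a log2 fold change of -8.22 (SE 0.25, adjusted p = 7.1e-10 by edgeR's quasi-likelihood test with BH adjustment). INHBA, the activin A subunit gene, had 10.4, 1.94 and 1.68 CPM in FaDu and 107, 127 and 99.2 CPM in SAS (log2 fold change -4.59, SE 0.45, edgeR adjusted p = 4.2e-06). FaDu Control 1 was the high FaDu library, and without it the value was -5.91. BMP7, a BMP ligand, went the other way with 61.5, 70.4 and 69.8 CPM in FaDu and 10.8, 9.18 and 8.66 CPM in SAS (log2 fold change 2.84, SE 0.10, edgeR adjusted p = 2.2e-09). TGFB3 was also higher in FaDu, with a log2 fold change of 1.83 (edgeR adjusted p = 0.00032). TGFB1, named after its value was seen, was lower, with 29.8, 21.5 and 20.01 CPM in FaDu and 106, 101 and 114 CPM in SAS (log2 fold change -2.14).

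Of 11 receptors tested 2 were lower and 3 higher in FaDu, with a median of -0.27. ENG, the coreceptor endoglin, had 31.4, 22.5 and 25.04 CPM in FaDu and 0.544, 0.798 and 0.530 CPM in SAS (log2 fold change 5.41, SE 0.21, edgeR adjusted p = 4e-09). TGFBR3, the coreceptor betaglycan, and BMPR1B, a type I receptor, were higher by log2 fold changes of 2.31 and 1.41 (edgeR adjusted p = 0.00011 and 0.0053). TGFBR2, the type II receptor of the TGF-beta ligands and also named after its value was seen, had 26.9, 22.5 and 26.3 CPM in FaDu and 182, 219 and 172 CPM in SAS, with no overlap (log2 fold change -2.89, SE 0.11, edgeR adjusted p = 2.5e-09).

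All 5 receptor-regulated SMADs had RNA in both lines, and edgeR and DESeq2 called 0 of 5 altered, while 3 had an unadjusted p under 0.05. SMAD2 had 66.8, 65.5 and 72.0 CPM in FaDu and 84.4, 77.6 and 81.9 CPM in SAS (log2 fold change -0.22, edgeR adjusted p = 0.0086). SMAD3 had 148, 145 and 154 CPM against 231, 264 and 260 CPM (log2 fold change -0.73, edgeR adjusted p = 2.9e-06). SMAD5, which serves BMP receptors, had 64.8, 66.8 and 71.8 CPM against 130, 111 and 119 CPM (log2 fold change -0.79, edgeR adjusted p = 2.6e-06). For these 3 genes every FaDu control lay below every SAS control, by less than the fold change that a call needs. SMAD1 and SMAD9, also partners of BMP receptors, had log2 fold changes of 0.12 (edgeR adjusted p = 0.54) and 0.49 (edgeR adjusted p = 0.21) and overlapping libraries. The partner that these SMADs share, SMAD4, had no count in the 3 FaDu controls.

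Among 15 inhibitors and nuclear partners edgeR called 3 lower and 3 higher in FaDu, with a median of -0.27, while DESeq2 called 4 of the 15. SMAD7, an inhibitory SMAD that is itself induced by TGF-beta, had 1.84, 2.19 and 2.48 CPM in FaDu and 12.7, 11.1 and 18.3 CPM in SAS (log2 fold change -2.65, SE 0.22, edgeR adjusted p = 1.2e-06). SMAD6, the inhibitory SMAD of BMP signaling, was higher in FaDu by a log2 fold change of 1.04 (edgeR adjusted p = 0.03). NOG, the BMP antagonist noggin, had 0.157, 0.0509 and 0.0839 CPM in FaDu and 1.41, 1.94 and 0.589 CPM in SAS (log2 fold change -3.66, edgeR adjusted p = 0.00022). TGIF1, a nuclear corepressor, was higher in FaDu by a log2 fold change of 1.62 (edgeR adjusted p = 3.3e-08). BAMBI, a decoy receptor, had 53 counts in FaDu controls and 1 count in SAS controls, a ratio of 44.8 with a counting interval from 7.71 to 1800.

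Target genes were the group with the lowest median, -2.48, and edgeR called 12 of 20 lower and 1 higher in FaDu. DESeq2 called 14 of the 20. TGFBI, an extracellular matrix gene named for its induction by TGF-beta, had 36.0, 23.9 and 27.1 CPM in FaDu and 1457, 1422 and 1737 CPM in SAS (log2 fold change -5.70, SE 0.16, edgeR adjusted p = 3.6e-10). THBS1, which encodes thrombospondin 1, had 18.8, 17.5 and 19.1 CPM against 1006, 984 and 945 CPM (log2 fold change -5.70, SE 0.07, edgeR adjusted p = 3.3e-12). The cytokine gene IL11 had a log2 fold change of -4.17, or -4.94 without FaDu Control 1, and PTHLH, which encodes a parathyroid hormone-related hormone, one of -3.46 (edgeR adjusted p = 1.3e-06 and 1e-05 with all libraries). COL1A1, a collagen gene that is also a fibroblast marker, was the only target gene called higher by edgeR, with 35.7, 42.8 and 47.2 CPM in FaDu and 1.20, 0.969 and 1.83 CPM in SAS (log2 fold change 5.01, SE 0.19, edgeR adjusted p = 3.1e-09). In all, 4 of the 20 had a positive log2 fold change. Among these ID1, named here after its value was seen, was 99.5% higher in FaDu (edgeR adjusted p = 1.1e-06), just short of the call. Whether the SMAD4 counts bear on any of these differences was not tested, since the lines differ in 38.1% of all genes.

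**Figure D4:**
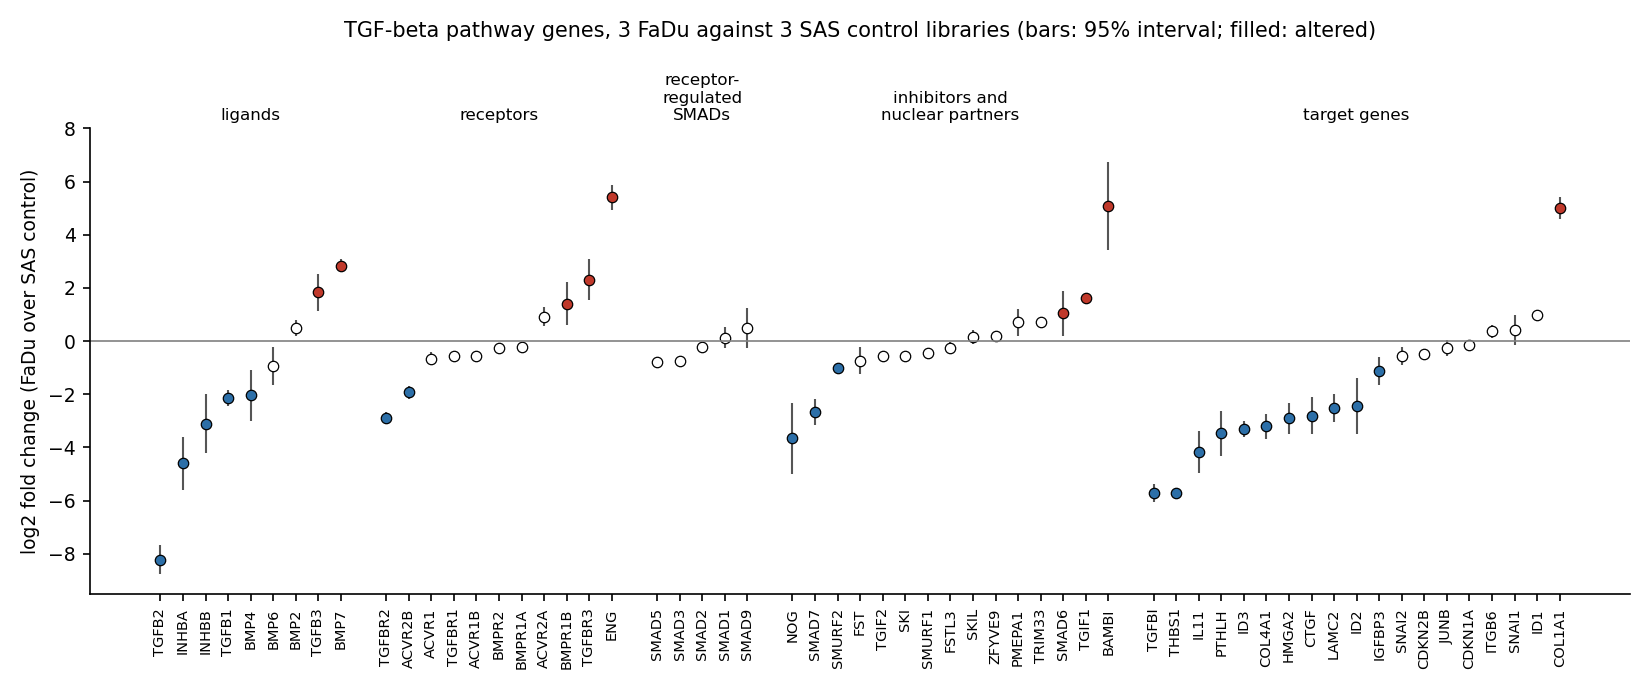
Log2 fold change of FaDu control over SAS control for 59 of the 60 tested TGF-beta pathway genes, arranged by role (n = 3 a group); blue points were lower and red points higher in FaDu by edgeR's test, and open points were not altered. Target genes reach -5.70 at the low end, and the 5 receptor-regulated SMADs are all open.

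Each member has relatives elsewhere in the genome, and 13 such paralogs were tested between the controls. By edgeR 3 were higher and 1 lower in FaDu (SMAD7), with a median of 0.12, where 38.1% of all genes tested were altered. DESeq2 called 3 of the 13. Both lines had RNA of other malic enzymes and of the other tRNA 3′ endonuclease. ME1, the cytosolic malic enzyme, had 55.3, 43.95 and 44.8 CPM in FaDu and 35.8, 38.1 and 32.6 CPM in SAS, with no overlap (log2 fold change 0.47, edgeR adjusted p = 0.0017, not altered by the fold change). ME3, the other mitochondrial malic enzyme, had 4.09, 5.09 and 3.78 CPM against 1.31, 1.65 and 1.71 CPM (log2 fold change 1.50, edgeR adjusted p = 0.00012). ELAC2, the long form of the tRNA 3′ endonuclease, had 77.2, 83.7 and 82.1 CPM against 116, 106 and 116 CPM (log2 fold change -0.45, edgeR adjusted p = 0.0001, not altered). MEX3B, a relative of MEX3C, was low in both lines, with 3.25, 3.57 and 4.36 CPM in FaDu and 0.272, 0.285 and 0.472 CPM in SAS (log2 fold change 3.46, SE 0.31, edgeR adjusted p = 1.8e-06). MEX3A and MEX3D had log2 fold changes of 0.35 (edgeR adjusted p = 0.13) and -0.13 (edgeR adjusted p = 0.22).

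MEX3C is known, with PIGN and ZNF516, as an 18q gene whose loss disturbs chromosome segregation, and the other 2 genes of this trio had RNA in FaDu. PIGN had 17.0, 19.2 and 19.1 CPM in FaDu controls and 35.1, 33.8 and 35.7 CPM in SAS controls, with no overlap (log2 fold change -0.89, edgeR adjusted p = 3.5e-06, not altered by the fold change). ZNF516 had 24.9, 20.5 and 24.9 CPM in FaDu and 13.8, 14.5 and 17.3 CPM in SAS, again with no overlap (log2 fold change 0.65, edgeR adjusted p = 0.0005, not altered by the fold change). After HT in FaDu it was at 15.5, 14.8 and 15.3 CPM (log2 fold change -0.60, edgeR adjusted p = 0.0047, not altered). After HT in SAS its log2 fold change was -0.25 (edgeR adjusted p = 0.18), and the responses differed by -0.32 (edgeR adjusted p = 0.33).

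Some pathway genes were altered after HT in both lines, and the part of SMAD4 in this was not tested. In SAS, 8 of 58 pathway genes rose and 0 fell after HT by edgeR, where 904 of 15000 genes were altered (6.03%), 797 of them upward. At an unadjusted p under 0.05 there were 25 pathway genes, beside 5323 genes, and DESeq2 called 8 pathway genes. The median of the list was 0.02 against 0.00 over all genes. In FaDu, 9 of 57 rose and 1 fell, where 789 of 15879 genes were altered (4.97%), and the median was -0.03 against 0.01. Without the FaDu libraries numbered 1, 12 pathway genes and 1056 genes were altered in FaDu. ID2, an inhibitor of DNA binding, had 13.9, 14.6 and 21.6 CPM after HT in SAS and 1.36, 0.684 and 1.77 CPM in the controls (log2 fold change 3.74, SE 0.27, edgeR adjusted p = 1.2e-06). In FaDu it had 3.51, 1.46 and 2.64 CPM after HT and 0.315, 0.153 and 0.210 CPM in the controls (log2 fold change 3.48, SE 0.45, edgeR adjusted p = 0.0013). CTGF, a matricellular growth factor gene, had 39.3, 54.4 and 56.3 CPM after HT in SAS and 7.18, 10.3 and 10.5 CPM in the controls (log2 fold change 2.45, edgeR adjusted p = 6.7e-07). In FaDu it had 5.44, 6.64 and 6.96 CPM after HT and 0.630, 1.22 and 1.97 CPM in the controls (log2 fold change 2.31, edgeR adjusted p = 0.002). The heated libraries lay above all controls for both genes in both lines. SNAI1, a transcription factor of epithelial-mesenchymal transition, rose by 2.75 in SAS and 2.47 in FaDu on the log2 scale, and IL11 by 1.74 and 2.45 (edgeR adjusted p at most 0.0098). Without FaDu Control 1, the library with the most IL11 among FaDu controls, the FaDu value of IL11 was 3.24.

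The other genes altered by HT in SAS were ID3, with a log2 fold change of 1.40, BMP4 with 4.45, COL1A1 with 4.18 and BAMBI, which had 1 count in controls and 55 after HT, a ratio of 52.5 with a counting interval from 9.05 to 2110. In FaDu BAMBI had 0.892, 0.560 and 1.05 CPM in controls and 3.57, 2.93 and 3.69 CPM after HT (log2 fold change 2.03, edgeR adjusted p = 0.0015). SMAD7 rose in FaDu by a log2 fold change of 1.36 (edgeR adjusted p = 0.0014), from the levels above to 5.50, 5.38 and 5.59 CPM. In SAS its log2 fold change was 0.68 (edgeR adjusted p = 0.012, not altered), and the difference between the lines was 0.71 (edgeR adjusted p = 0.16). Among paralogs MEX3B rose in both lines, in SAS to 3.77, 3.08 and 3.52 CPM (log2 fold change 3.35, SE 0.31, edgeR adjusted p = 1.3e-05) and in FaDu to 35.3, 26.9 and 33.3 CPM (log2 fold change 3.11, SE 0.15, edgeR adjusted p = 5e-06). Its responses in the lines differed by -0.21 (edgeR adjusted p = 0.83).

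After HT + RT, 9 of 58 pathway genes rose and 0 fell in SAS by edgeR, where 950 of 14938 genes were altered (6.36%), 861 of them upward. At an unadjusted p under 0.05 there were 26 pathway genes, beside 5392 genes, and DESeq2 called 9 pathway genes. In FaDu 10 of 57 rose and 1 fell, where 910 of 15896 genes were altered (5.72%). Without the FaDu libraries numbered 1, these were 13 pathway genes and 1324 genes. The genes were those named for HT in each line together with INHBA in SAS and INHBB in FaDu, both activin or inhibin subunit genes. These had just missed the call after HT, with log2 fold changes of 0.94 for INHBA in SAS (edgeR adjusted p = 4.2e-05) and 0.95 for INHBB in FaDu (edgeR adjusted p = 0.061). INHBA had 196, 267 and 212 CPM after HT + RT in SAS (log2 fold change 1.07, SE 0.11, edgeR adjusted p = 3.8e-05). Its call was lost without SAS Control 3 (0.99), without SAS HT+RT 2 (0.93) and with all 24 libraries in 1 fit (1.06, adjusted p = 0.075). INHBB had 1.37, 1.50 and 2.12 CPM after HT + RT in FaDu and 0.525, 0.815 and 0.671 CPM in controls (log2 fold change 1.35, SE 0.30, edgeR adjusted p = 0.014). Its call was lost without FaDu Control 3 (1.34, adjusted p = 0.06), without FaDu HT+RT 3 (1.12, adjusted p = 0.086) and with all 24 libraries in 1 fit (1.36, adjusted p = 0.095). BMP4 in FaDu had a log2 fold change of 1.71 (edgeR adjusted p = 0.015) and missed the threshold without FaDu Control 2 (1.42, adjusted p = 0.056) or FaDu HT+RT 3 (1.68, adjusted p = 0.063), while without FaDu Control 3 it was 2.30. IL11 in FaDu had one of 2.66, or 3.45 without FaDu Control 1. The HT + RT comparisons share their controls with the HT comparisons.

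The difference between the HT responses of the lines was tested by an interaction term, and 471 of 17219 genes were altered (2.74%), among them 5 of 60 pathway genes, 2 with the higher response in FaDu and 3 with the lower. Without the FaDu libraries numbered 1, 526 genes and 7 pathway genes were altered, and with single libraries left out the pathway count was 4 to 7. THBS1 rose in FaDu to 48.0, 39.98 and 75.8 CPM (log2 fold change 1.59, edgeR adjusted p = 0.0017) and was at 818, 943 and 641 CPM after HT in SAS, below its controls, and the responses differed by 1.88 (SE 0.26, edgeR adjusted p = 0.00048). JUNB, an immediate early transcription factor gene, rose in FaDu from 137, 118 and 121 CPM to 378, 412 and 343 CPM, while SAS libraries were at 130, 138 and 194 CPM before and 136, 152 and 134 CPM after HT, a difference of 1.74 (SE 0.18, edgeR adjusted p = 2.9e-05). ID1, the relative of ID2 and ID3, fell in FaDu from 200, 166 and 176 CPM to 59.2, 44.5 and 38.3 CPM, while SAS stood at 91.0, 86.8 and 99.7 CPM before and 92.7, 90.1 and 96.8 CPM after, a difference of -1.93 (SE 0.17, edgeR adjusted p = 6.2e-06). In each of these 3 genes the FaDu groups did not overlap. COL1A1 rose in SAS from the control levels above to 30.5, 16.3 and 23.96 CPM and was at 49.6, 48.2 and 63.7 CPM after HT in FaDu, a difference of -3.76 (SE 0.34, edgeR adjusted p = 1e-05). The other 5 fibroblast markers were below 1 CPM in each control and HT library of both lines. In SAS, mean CPM in controls and after HT were 0.115 and 0.581 for PDGFRA, 0.0771 and 0.232 for COL1A2, 0.170 and 0.197 for LUM, 0.374 and 0.291 for PDGFRB, and 0.0196 and 0 for DCN. In FaDu each of them had at most 6 counts in any of these libraries, and those 6 were of DCN in FaDu HT 1, a library numbered 1. Their part in the COL1A1 difference was not tested. BMP4 rose in SAS from 1.03, 2.11 and 1.89 CPM to 35.3, 33.4 and 38.9 CPM and in FaDu from 0.315, 0.204 and 0.629 CPM to 1.75, 1.46 and 1.64 CPM, a difference of -2.40 (SE 0.47, edgeR adjusted p = 0.0063). Without FaDu Control 3 this difference was -1.79 with an adjusted p of 0.11, and the FaDu response itself moved from 2.04 to 2.63.

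**Figure D5:**
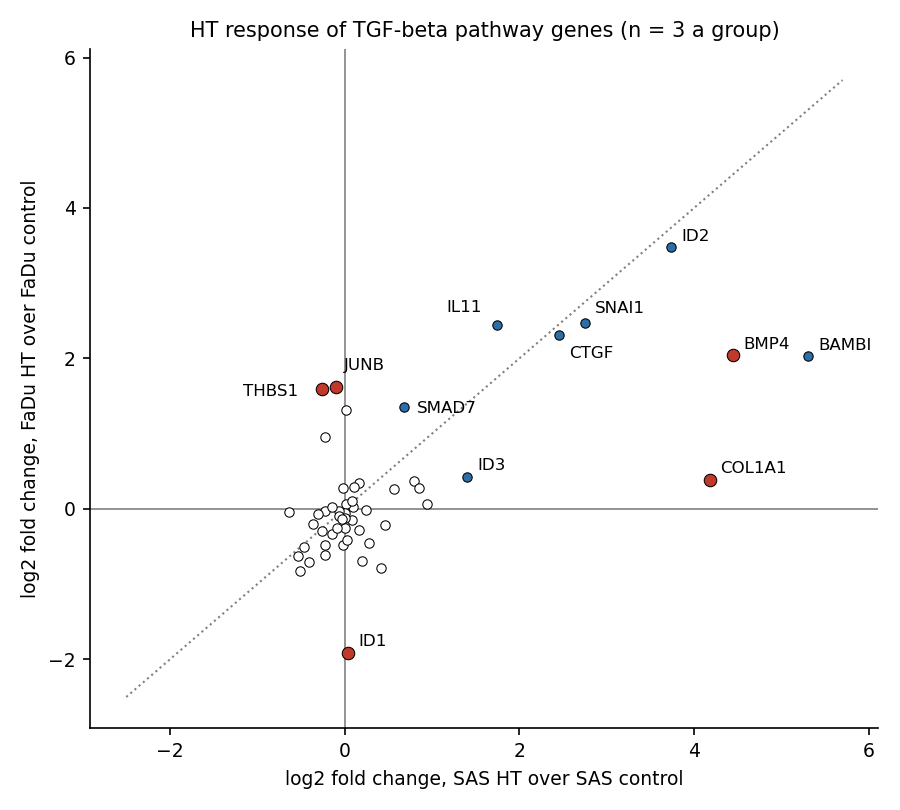
Log2 fold change after HT in SAS (horizontal) and FaDu (vertical) spheroids for 54 of the 55 TGF-beta pathway genes tested in both lines, with a dotted line of equal response (n = 3 a group). Red points are the 5 genes whose responses were called different between the lines, by adjusted p and fold change. Blue points were altered in at least 1 line without such a call, and open points were altered in neither. ID3, a blue point, differed by -0.94 (edgeR adjusted p = 0.024), short of the fold change that a call needs.

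RT alone moved few genes. In SAS 1 of 57 pathway genes was altered, CTGF, with 17.7, 27.2 and 23.5 CPM after RT against 7.18, 10.3 and 10.5 CPM in the controls (log2 fold change 1.29, SE 0.18, edgeR adjusted p = 0.033). All 3 irradiated libraries were higher than the 3 controls. The call was lost without SAS Control 1 (1.12, adjusted p = 0.16), SAS Control 2 (1.38, adjusted p = 0.1), SAS RT 2 (1.14, adjusted p = 0.2) or SAS RT 3 (1.28, adjusted p = 0.056). Libraries of the same number were correlated in this comparison, and with the replicate number as a block CTGF had the same log2 fold change with an adjusted p of 3.3e-08 (range over the alternatives 4.1e-19 to 0.2). With the block SNAI1 was altered too (log2 fold change 1.27, SE 0.22, adjusted p = 0.0017, against 1.26 and 0.1 without the block), having 4.51, 4.25 and 4.11 CPM after RT and 2.34, 1.48 and 1.53 CPM in the controls. The number of genes altered in SAS was 25 with the block in place of 4, and it was 1 without SAS Control 1 or SAS Control 2 and 0 without SAS RT 2.

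In FaDu, edgeR called 0 of 54 pathway genes and 1 of 15552 genes (0.00643%) after RT, with 4 pathway genes and 791 genes at an unadjusted p under 0.05, and DESeq2 called 1 pathway gene. With the block, 28 genes and 1 pathway gene were altered, and this gene was again CTGF, with 4.06, 4.10 and 3.38 CPM after RT against 0.630, 1.22 and 1.97 CPM in the controls (log2 fold change 1.56, SE 0.26, adjusted p = 0.00025 with the block and 0.34 without). Its irradiated libraries did not overlap the controls. Without the FaDu libraries numbered 1, 15 genes and 1 pathway gene were altered. Leaving out single libraries gave 3 genes without FaDu Control 1, 8 without FaDu RT 1, and 0 without FaDu Control 3 or FaDu RT 2.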

How the data were processed

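Whole-number read counts per gene, as deposited by the authors in 7 raw tables for 57500 Ensembl genes, were used for 24 libraries; the normalized count tables were not used, and 18 repeated control columns were identical. The submitters' processing notes name bcl2fastq and DESeq2 without versions and list mm9, a mouse build, beside human Ensembl IDs. A human genome build, the aligner, the counting program and the strand setting are not given in the sources used here. Gene names, order and exon lengths come from GENCODE release 29, in which 602 genes, with 0.0217% of counts, had no name.

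For each comparison, edgeR 4.0.16 was run under R 4.3.3 (TMM scaling, filterByExpr with a minimum count of 10, quasi-likelihood test, Benjamini-Hochberg adjustment over all genes tested), each on the libraries of its groups. A standard error is the absolute log2 fold change over the square root of F. CPM use TMM scaling over all 24 libraries, so ratios of CPM can differ slightly from the fits. Alternatives were DESeq2 1.42.0, RLE size factors, no filter, all libraries in 1 fit, a replicate block, adjusted p alone and each library left out. The paper gives replicates as independent experiments. The main fits have no block for the replicate number, so their p-values also take in shifts between experiments that libraries of the same number may share. Departures from the group mean, compared between libraries of the same number, had correlations over 0.1 in all 3 pairs for RT and HT + RT in SAS and for RT, HT and HT + RT in FaDu, and not for HT in SAS or the controls; in the interaction the FaDu pairs passed and the SAS pairs did not all pass.

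The members and lists were chosen with earlier results of these data known. Named genes are the members, genes between them, 10 protein-coding genes on each side, paralogs, PIGN and ZNF516, up to 8 highest and 8 lowest altered pathway genes per comparison, the 5 genes most like the members and genes of other silent runs of 3 or more, with exceptions named as such; 1 pathway gene and 1 run that this rule takes are left out of the text. The code was tested on simulated data. Python 3.11.15 with numpy 2.4.6, pandas 2.3.3, scipy 1.17.1 and matplotlib 3.10.9 was used for levels and figures.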

Additional observations from a re-analysis of the deposited data

Results flagged for a closer look

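The HT responses of 5 TGF-beta pathway genes were called different between FaDu and SAS spheroids by the interaction test of edgeR, as FaDu minus SAS on the log2 scale. The differences were -2.40 for BMP4, -3.76 for COL1A1, -1.93 for ID1, 1.74 for JUNB and 1.88 for THBS1. That of BMP4 was -1.79 with an adjusted p of 0.11 without FaDu Control 3, over a range from 1e-06 to 0.11 in the alternatives. COL1A1 is also in the fibroblast marker list, whose other 5 genes were below 1 CPM in each control and HT library of both lines. The cell lines differ in many genes, and no line with SMAD4 restored or removed was measured, so the part of SMAD4 in these differences was not tested.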

How the results depend on the processing

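The alternatives were followed for 72 log2 fold changes, those of the members and of the highest and lowest altered pathway genes per comparison. TGFB1, TGFBR2, PIGN, ZNF516 and the paralogs were not among them, apart from SMAD7 in heated FaDu spheroids. Of 936 values of the 72 under the alternatives, 906 kept their direction and side of the threshold, 13 lost the call and 17 changed sign. All 17 were members with a value near 0. SMAD4 after HT + RT in SAS was -0.02 without the low-count filter and -0.00 with all 24 libraries in 1 fit. With a library left out, it ran from -0.03 to 0.04 after HT + RT, from -0.02 to 0.05 after HT and from -0.02 to 0.05 after RT, ME2 from -0.04 to 0.03 after HT and from -0.04 to 0.02 after RT, and MEX3C from -0.01 to 0.04 after RT. The count of altered genes after RT in SAS was 10 with DESeq2, 30 without the filter, 9 with all libraries in 1 fit, 25 with the replicate block, 11 by adjusted p alone and 0 to 5 with a library left out, and its pathway count was 2 in the first 4 of these and 0 to 1 with a library left out. After RT in FaDu the counts were 12, 28, 12, 28, 5 and 0 to 8 in the same order, with 1 pathway gene in the first 4. Leaving out the FaDu libraries numbered 1, chosen after seeing the data, gave 15 genes and 1 pathway gene there. Without the filter 1436 genes were altered after HT + RT in SAS, 1382 after HT in FaDu and 1487 after HT + RT in FaDu. Adjusted p alone gave 3540 genes and 19 pathway genes for HT in SAS, 3747 and 20 for HT + RT in SAS, 2801 and 20 for HT in FaDu, 3067 and 23 for HT + RT in FaDu, 11855 and 54 for the controls, and 956 and 11 for the interaction. The number of silent runs, 39, was 88 at up to 5%, 18 at 5 CPM or more and 61 with genes of every type, and the SMAD4 run kept its 4 genes in each of these. The causes of these shifts were not tested. For ELAC1, with 0 FaDu counts, the depth allows a level of up to 0.0122 CPM, the floor of 3 counts. RNA counts do not measure DNA or protein, 1 line stands for each spheroid type, and replicates number 3 a group.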
